A study of Mus musculus with 16 samples.

Results

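The insulin-like growth factor (IGF) system was followed through 10 genes: the ligands Igf1 and Igf2, the receptors Igf1r and Igf2r, and the binding proteins Igfbp2, Igfbp3, Igfbp4, Igfbp5, Igfbp6 and Igfbp7. They were taken by gene name from count tables of 54532 genes, and all 10 were among the 14783 genes that passed the filter on low counts. IGF1 and IGF2 are secreted growth factors that act through the tyrosine kinase receptor IGF1R and, from there, through PI3K, AKT and mTOR. IGF2R has no kinase and takes up IGF2 for degradation, and the IGF binding proteins hold the ligands in the extracellular space, where they lengthen their life or keep them from the receptor. In the brain the ligands and binding proteins come from neurons, glia, vessels, ependyma and meninges, and IGF signalling is known for its part in growth, survival and synapse formation.

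Bulk RNA sequencing was done on primary hippocampal cells of newborn mice, which were grown as mixed cultures of neurons and glia. WT cultures came from C57BL/6 mice, and Shank3∆11(−/−) (KO) cultures from mice of that background that lack the long isoforms of the postsynaptic scaffold SHANK3 (Shank3a, Shank3b and Shank3c). Vehicle (Veh, water) or lithium (Li, 0.1 mmol/l) was in the medium for 5 days from day in vitro (DIV) 9, and the RNA is that of DIV 14. This gave WTVeh, WTLi, KOVeh and KOLi, with 4 libraries each and 16 in all. The pups were of postnatal days 1 to 2 by the labels. The paper also has pups of the day of birth. The hippocampi of several pups were pooled for a culture. The labels give a different DIV for each library, from 14 to 29, and those of the paper are used here. By the labels, sequencing batch 2 holds replicate 4 of each group and sequencing batch 1 all others. The replicate number was taken as the paper's experimental batch, which the labels do not state. Nothing in the labels says that the Veh and Li libraries of a genotype and number came from separate cultures, so that p-values measure only the spread between these libraries, part of which may be technical.

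A library held between 16123067 and 35188300 counts (median 22041966). Levels are given as CPM, the counts of a gene set against all counts of the tested genes in its library and scaled by TMM. Wherever genes are compared with each other they are given as TPM, which also divides by gene length. Shank3, the targeted gene, was at 169 to 267 CPM in WTVeh and 82.0 to 162 CPM in KOVeh, and at 188 to 261.2 CPM in WTLi and 85.3 to 159 CPM in KOLi. The libraries labelled KO replicate 2 held the most Shank3 of the KO libraries, 162 and 159 CPM against 82.0 to 97.9 CPM in the other 6. They stood at 0.956 (Veh) and 0.845 (Li) of their WT partners, where the other pairs gave 0.367 to 0.404. Their Shank3 level is thus near that of WT, and whether these libraries lack SHANK3 as the other KO libraries do cannot be told from these counts. They are counted as KO by their labels, and the results that change without replicate 2 are also given without it. Of the markers that define cell types, all 6 of neurons and all 6 of astrocytes passed the filter. In replicates 3 and 4 the 6 microglia markers summed to 2.32 to 6.91 CPM, and the endothelial marker Cldn5 was at 0 in 8 of the 16 libraries.

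Each log2 fold change below is given with its standard error (SE) from edgeR's quasi-likelihood test on all 16 libraries, with group and replicate number as terms. A call needed an adjusted p below 0.01 together with a change of more than 1.2-fold. Adjusted p-values are Benjamini-Hochberg values over all 14783 genes.

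Among the 10 genes, those that passed the test between genotypes were binding proteins. In KOVeh against WTVeh 1 of the 10 genes was called lower, Igfbp2, where 3.42% of all genes tested were called lower, and 0 were called higher, where 2.08% of all genes were. In KOLi against WTLi 2 of 10 were called lower, Igfbp2 and Igfbp5 (3.6% of all genes), and 0 higher (2.76% of all genes). The median log2 fold change of the 10 genes was -0.51 under Veh and -0.52 under Li, beside -0.01 and 0.00 over all genes, and the median size, taken without sign, was 0.51 and 0.66 beside 0.18 and 0.19. In same-numbered pairs of libraries, 3 of 10 genes were lower in KO in all 4 pairs under Veh, Igfbp2, Igfbp3 and Igfbp5, where 17.2% of all genes were. Under Li this held for 7 of 10, where it held for 20.6% of all genes. The count of genes higher in all 4 pairs was 0 of 10 under Veh (14.2% of all genes) and 1 of 10 under Li, Igfbp4 (18.7%). Both comparisons were made in the same fit, and their libraries may come from the same cultures.

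**Figure D1:**
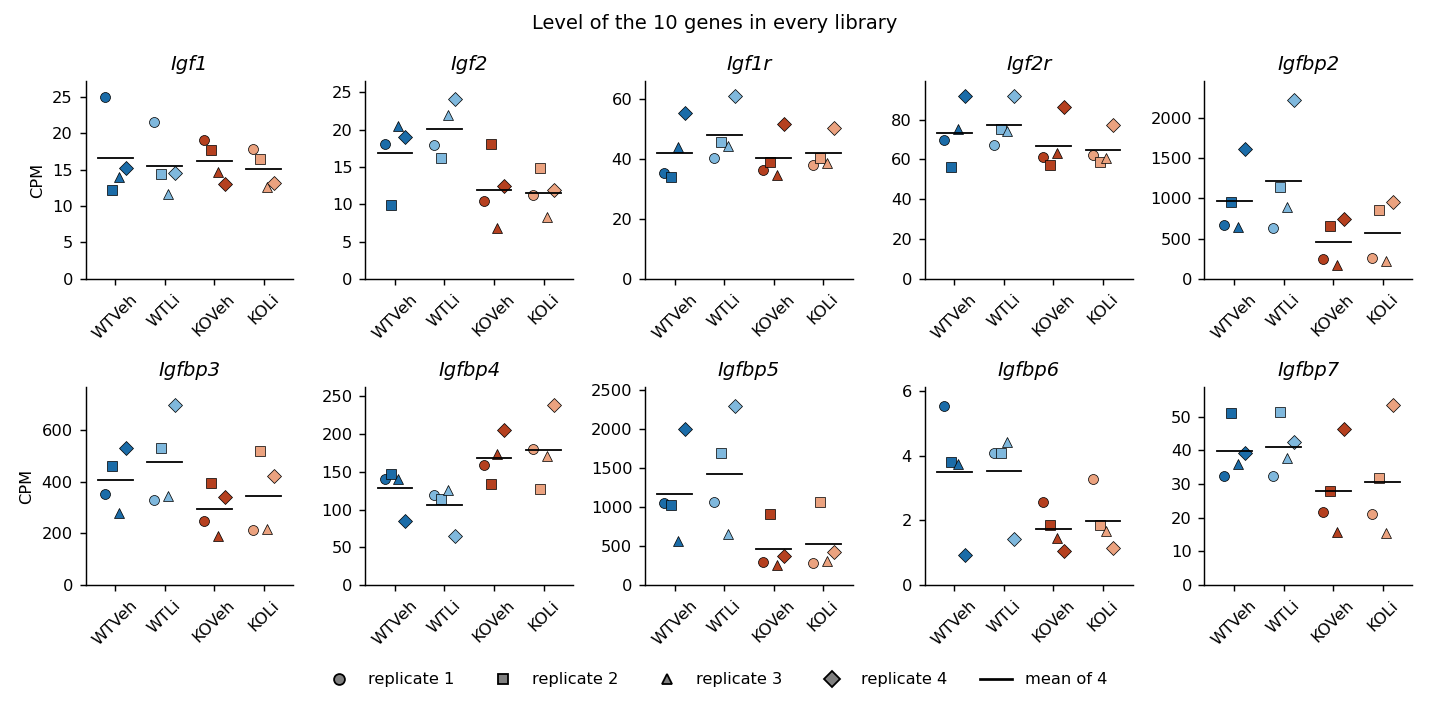
Level in CPM (vertical axis, from 0) of each of the 10 genes in the 16 libraries, with 4 libraries a group and the symbol giving the replicate number. Black lines are group means. Igfbp2 and Igfbp5 have the lowest points in replicates 1 and 3 of KO. Of the KO points the highest are those of replicate 4 for Igfbp2 and of replicate 2 for Igfbp5.

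Igfbp2 and Igfbp5 encode binding proteins that are secreted by many cells of the brain and that also attach to extracellular matrix or the cell surface. Their genes are neighbours on chromosome 1 and point at each other. Igfbp2 (ENSMUSG00000039323) spans 72824503 to 72852474 on the plus strand and Igfbp5 (ENSMUSG00000026185) spans 72857932 to 72874884 on the minus strand of GRCm38.p6, with 5457 bases between their ends. Igfbp4 (ENSMUSG00000017493), on the plus strand of chromosome 11 from 99041244 to 99054392, was the member whose estimate was above 0 in both genotype comparisons. The 250 bases before the start site of these 3 genes are shown because 2 were called and 1 went the other way. They are written 5′ to 3′ on the gene's own strand from RefSeq on GRCm38.p6, which had entries for all 10 genes, and for Igfbp2 the upstream one of its 2 start sites is shown. Capitals mark matches on either strand to the SP1 box (written GGGCGG in the search), the half-site of the cyclic AMP response element or CRE (TGACG), the core bound by TCF/LEF factors (CTTTG) and the box of the TATA-binding protein (TATAAA). In these 3 windows no match overlaps another.
Igfbp2, chr1:72824230-72824479, plus strand: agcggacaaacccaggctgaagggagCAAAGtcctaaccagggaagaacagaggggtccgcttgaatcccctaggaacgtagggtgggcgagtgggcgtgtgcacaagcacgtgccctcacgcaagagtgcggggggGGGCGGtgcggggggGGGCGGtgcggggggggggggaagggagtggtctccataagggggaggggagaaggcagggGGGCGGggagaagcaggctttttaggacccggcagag
Igfbp5, chr1:72874866-72875115, minus strand: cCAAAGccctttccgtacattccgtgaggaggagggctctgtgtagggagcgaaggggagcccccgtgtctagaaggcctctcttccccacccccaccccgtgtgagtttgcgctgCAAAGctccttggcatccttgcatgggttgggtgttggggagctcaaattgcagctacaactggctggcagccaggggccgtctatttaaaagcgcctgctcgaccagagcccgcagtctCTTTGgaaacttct
Igfbp4, chr11:99040994-99041243, plus strand: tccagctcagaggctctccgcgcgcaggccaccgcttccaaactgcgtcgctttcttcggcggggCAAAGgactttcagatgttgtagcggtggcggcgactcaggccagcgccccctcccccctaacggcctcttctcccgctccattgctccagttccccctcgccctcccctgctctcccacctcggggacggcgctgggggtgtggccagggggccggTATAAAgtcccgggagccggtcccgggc
The Igfbp2 window held 3 SP1 boxes, 113, 98 and 37 bases before the start site, and 1 TCF/LEF core. The Igfbp5 window held 3 TCF/LEF cores, 249, 134 and 14 bases before the start site, and no match to the other motifs. In the Igfbp4 window a TATA box lay 28 bases before the start site, beside 1 TCF/LEF core. None of the 3 windows held the CRE half-site. Of 32807 such windows of mouse genes, 32.7% held the SP1 box, 17.8% the CRE half-site, 48.6% the TCF/LEF core and 12.4% the TATA box. These matches describe the letters of the windows, and no binding was measured.

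Igfbp2 was the most abundant of the 10 genes per length. Its level in WTVeh was 665 CPM in replicate 1, 962 in replicate 2, 649 in replicate 3 and 1619 in replicate 4. In KOVeh it was 247, 659, 173 and 739.6 CPM in the same order. Every KO library was below the WT library of its number, at 0.371, 0.685, 0.267 and 0.457 of it, although the ranges of the groups overlapped because replicates 2 and 4 of KOVeh reached the lower WT values. The log2 fold change was -1.25 (SE 0.227, adjusted p = 0.00455, n = 4 per group), that is, 0.42 of the WT level. Under Li the libraries stood at 637, 1138, 890 and 2219 CPM in WTLi and at 259, 862, 225 and 956 CPM in KOLi. The pairs gave 0.407, 0.757, 0.253 and 0.431, and the log2 fold change of -1.23 (SE 0.228, adjusted p = 0.00462) was close to that under Veh. The call under Veh was lost when replicate 1, 3 or 4 of WTVeh or of KOVeh was left out, with adjusted p from 0.0109 to 0.0228 and log2 fold changes from -1.07 to -1.28, and likewise under Li for replicates 1, 3 and 4 of WTLi and KOLi, with adjusted p from 0.0111 to 0.0229. Under Veh it was also lost without the replicate term (-1.10, adjusted p = 0.348), with the sequencing batch in its place (-1.09, adjusted p = 0.215), with the compared groups only (-1.24, adjusted p = 0.0614) and with sequencing batch 1 alone (-1.27, adjusted p = 0.0286). Under Li the same 4 settings gave adjusted p of 0.301, 0.18, 0.0467 and 0.0374. Without replicate 2 the call under Veh was kept, at -1.48 (adjusted p = 0.00115).

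Igfbp5 showed the largest log2 fold change of the 10 in both genotype comparisons. In WTVeh it was at 1055, 1029, 560 and 2000 CPM in replicates 1 to 4, and in KOVeh at 300.5, 904, 253 and 371 CPM. Each KOVeh library was below its WT partner, at 0.285, 0.878, 0.451 and 0.186 of it, and replicate 2 of KOVeh alone lay within the WT range. The log2 fold change was -1.43 (SE 0.322), and its adjusted p of 0.011 missed the threshold. Under Li the levels were 1066, 1686, 651 and 2289 CPM in WTLi and 277, 1065, 309.8 and 427 CPM in KOLi. Here the log2 fold change of -1.50 (SE 0.321, adjusted p = 0.00847) was called. The 2 genotype differences themselves differed by -0.06 (SE 0.439, adjusted p = 1), so that a call under Li and a miss under Veh do not show a different response. Without replicate 2 Igfbp5 was called under both treatments, at -1.80 under Veh (adjusted p = 0.00223) and -1.81 under Li (adjusted p = 0.00196). The call under Li was lost when any 1 of 11 libraries was left out (WTLi replicates 1 to 4, KOLi replicates 1, 3 and 4, and replicates 1 and 3 of WTVeh and KOVeh), with adjusted p between 0.0101 and 0.0393. It was also lost without the replicate term (-1.45, adjusted p = 0.243), with the sequencing batch in its place (-1.37, adjusted p = 0.169), with the compared groups only (-1.52, adjusted p = 0.0469) and with sequencing batch 1 alone (-1.16, adjusted p = 0.0407). Under Veh DESeq2 called Igfbp5 lower (-1.42, adjusted p = 0.00109).

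Igfbp3, the main carrier of IGF in serum, lies on chromosome 11 from 7206086 to 7213923 on the minus strand. It was at 353, 459, 279 and 532 CPM in WTVeh and at 249, 395, 189 and 342 CPM in KOVeh. KO was lower in 4 of 4 pairs under Veh and in 4 of 4 under Li, and the groups overlapped both times. The log2 fold changes of -0.48 (SE 0.127, adjusted p = 0.0218) and -0.51 (SE 0.128, adjusted p = 0.0166) were not called by edgeR, while DESeq2 called both, at -0.46 (adjusted p = 0.00442) and -0.50 (adjusted p = 0.00204). Without replicate 2 both were called, at -0.56 (adjusted p = 0.0062) and -0.68 (adjusted p = 0.0027).

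Igfbp4, whose product mostly restrains IGF action until the protease PAPP-A cleaves it, was at 141, 147, 139.9 and 84.7 CPM in WTVeh and at 159, 134, 174 and 206 CPM in KOVeh. Replicate 4 of WTVeh was the lowest and replicate 4 of KOVeh the highest of these 8 libraries. The log2 fold change under Veh was 0.40 (SE 0.241, adjusted p = 0.269). Under Li the WT libraries were at 119, 114, 125.3 and 64.9 CPM and the KO libraries at 180, 127, 171 and 239 CPM. Every KOLi library was thus above every WTLi library, a pattern shown by 1 of the 10 genes, where 3.33% of all genes tested showed it. The log2 fold change of 0.77 (SE 0.244, adjusted p = 0.0396) was not called by edgeR, while DESeq2 called Igfbp4 higher under Li (0.78, adjusted p = 0.00575). Under Veh 0 of 10 genes had all KO libraries above all WT libraries (2.45% of all genes), and 0 of 10 had them all below (2.86%).

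Igfbp6 and Igfbp7 were not called. Igfbp6, whose product prefers IGF2 over IGF1, ranged from 0.918 to 5.54 CPM in WTVeh and from 1.04 to 2.58 CPM in KOVeh, with log2 fold changes of -0.88 (SE 0.251, adjusted p = 0.0289) under Veh and -0.80 (SE 0.252, adjusted p = 0.0392) under Li. Replicate 4 had the lowest Igfbp6 level of every group. Igfbp7, a matrix protein related to the binding proteins but with weak affinity for IGF, ranged from 32.5 to 51.1 CPM in WTVeh and from 15.7 to 46.4 CPM in KOVeh. Its log2 fold changes were -0.60 (SE 0.229, adjusted p = 0.0831) and -0.54 (SE 0.231, adjusted p = 0.111), and KO replicate 4 was above its WT partner under both treatments.

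**Figure D2:**
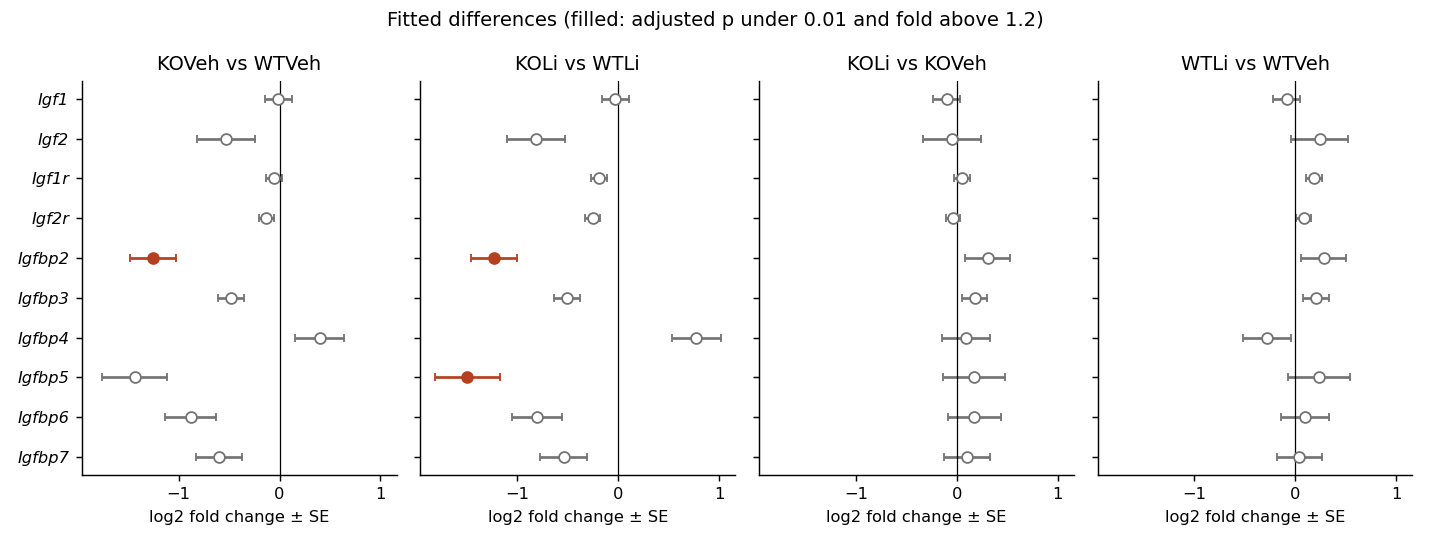
Log2 fold change (horizontal axis) of each of the 10 genes in 4 comparisons of 4 against 4 libraries, with bars for the SE. Filled points passed the thresholds: Igfbp2 at -1.25 and -1.23, and Igfbp5 at -1.50 under Li. The 2 panels on the right, Li against Veh in KO and in WT, hold no filled point.

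The ligands were scarce. Igf2 (chromosome 7, 142650766 to 142666816, minus strand), the imprinted fetal growth factor that is read from the paternal allele in most tissues, was at 18.02, 9.84, 20.5 and 19 CPM in WTVeh. In KOVeh it was at 10.4, 18.1, 6.81 and 12.5 CPM, so that KO was lower in 3 pairs and 1.83 times higher in replicate 2. The log2 fold change was -0.53 (SE 0.287, adjusted p = 0.216). Under Li the levels were 17.96, 16.2, 21.97 and 24.1 CPM in WTLi and 11.3, 14.9, 8.26 and 11.9 CPM in KOLi. Every KOLi library was below every WTLi library, which 1 of the 10 genes and 2.5% of all genes showed, but the log2 fold change of -0.81 (SE 0.287, adjusted p = 0.0595) was not called. Without replicate 2 Igf2 was called lower under Veh, at -0.97 (adjusted p = 0.00481), and under Li, at -1.04 (adjusted p = 0.00333).

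Igf2 overlaps other annotated genes. The antisense Igf2os shares 7124 bases with it and was at 2.55 to 5.32 CPM, and where both overlap their reads cannot be told apart, since no source used here gives the strand setting of featureCounts. Gm49394, which covers 16048 bases of the locus on the same strand, had 0 counts in all 16 libraries. H19, the imprinted RNA 72622 bases away that is read from the maternal allele, was at 17.6 to 31.7 CPM in WTVeh and 0.735 to 8.53 CPM in KOVeh. Its log2 fold changes of -2.14 (SE 0.612, adjusted p = 0.0294) and -2.25 (SE 0.612, adjusted p = 0.0229) missed the threshold. Every KO library was below every WT library under both treatments, a pattern shown by 2.86% of all genes under Veh and 2.5% under Li.

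Igf1, made by microglia and some neurons in the brain, did not separate the groups. It was at 24.95, 12.2, 13.97 and 15.3 CPM in WTVeh and at 19.1, 17.7, 14.6 and 13.1 CPM in KOVeh. KO was lower in 2 of 4 pairs under each treatment, and the log2 fold changes were -0.01 (SE 0.134, adjusted p = 0.954) and -0.03 (SE 0.135, adjusted p = 0.896). Replicate 1 of WTVeh, with the highest Igf1 level, also had the highest sum of the 6 microglia markers, 124 CPM.

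The receptors were not called in either genotype comparison. Igf1r (chromosome 7, 67952827 to 68233668, plus strand) was at 33.8 to 55.1 CPM in WTVeh and 34.7 to 51.6 CPM in KOVeh, with a log2 fold change of -0.05 (SE 0.0782, adjusted p = 0.66). Under Li it was lower in KO in 4 of 4 pairs, by ratios of 0.826 to 0.944, and at -0.19 (SE 0.0785, adjusted p = 0.105) it was not called. Igf2r (chromosome 17, 12682406 to 12769664, minus strand), a scavenger of IGF2 whose gene is imprinted in many mouse tissues, was at 56.5 to 92.0 CPM in WTVeh and 57.4 to 86.3 CPM in KOVeh. Its log2 fold changes were -0.13 (SE 0.0724, adjusted p = 0.226) under Veh and -0.25 (SE 0.0728, adjusted p = 0.0285) under Li. The imprinted antisense RNA Airn overlaps Igf2r over 28354 bases and was at 3.38 to 7.27 CPM.

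Per length, the binding proteins far outweighed the ligands and receptors. In WTVeh the mean levels were 1903 ± 859 TPM for Igfbp2, 699 ± 356 for Igfbp5, 469 ± 121 for Igfbp3, 119 ± 21.2 for Igfbp7 and 105 ± 24.5 for Igfbp4 (SD, n = 4). They were followed by 28.6 ± 5.79 TPM for Igf2r, 11.5 ± 6.42 for Igfbp6, 10.7 ± 3.17 for Igf2, 9.08 ± 2.08 for Igf1r and 6.11 ± 2.22 for Igf1. In this order the ranges of Igfbp5 and Igfbp3 overlapped, as did those of Igfbp7 and Igfbp4, and Igfbp6, Igf2, Igf1r and Igf1 were not separated from their neighbours. In KOVeh Igfbp2 still led, at 879 ± 538 TPM, and Igfbp3 (338 ± 103 TPM) and Igfbp5 (274 ± 181 TPM) stood in the reverse order with overlapping ranges.

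The 6 binding protein genes summed to 2644, 3239, 2216 and 5128 TPM in replicates 1 to 4 of WTVeh and to 1190, 2482, 903 and 2288 TPM in KOVeh. KO was lower in 4 of 4 pairs, and replicates 2 and 4 of KOVeh lay within the WT range. Under Li the sums were 2612, 4277, 2847 and 6645 TPM in WTLi and 1166, 3168, 1088 and 2849 TPM in KOLi. KO was again lower in 4 of 4 pairs, and replicates 2 and 4 of KOLi lay within the WTLi range. Igfbp3 took 11.9 to 16% of the sum in WTVeh and 16.6 to 24.9% in KOVeh, and under Li 12 to 15.4% in WTLi and 16.4 to 23.5% in KOLi, so that its shares did not overlap between genotypes. The other shares overlapped under Veh: Igfbp2 took 50.5 to 61.2% in WTVeh and 37.5 to 60.9% in KOVeh, Igfbp5 took 15.6 to 24.7% and 9.40 to 21.8%, and Igfbp4 took 1.34 to 5.29% and 4.41 to 15.8%. The shares were not tested. Set against the summed TPM of Igf1 and Igf2, the binding protein sum was 120 to 311 times as high in WTVeh and 85.4 to 188 times as high in KOVeh. In replicates 1 to 4 it was 126, 311, 120 and 295 in WTVeh and 85.4, 139, 93.7 and 188 in KOVeh, so that it was lower in KO in 4 of 4 pairs although the groups overlapped. Under Li it was 129, 265, 152 and 326 in WTLi and 83.8, 203, 109 and 242 in KOLi, again lower in 4 of 4 pairs. Since these ratios compare transcripts, they say nothing of protein.

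**Figure D3:**
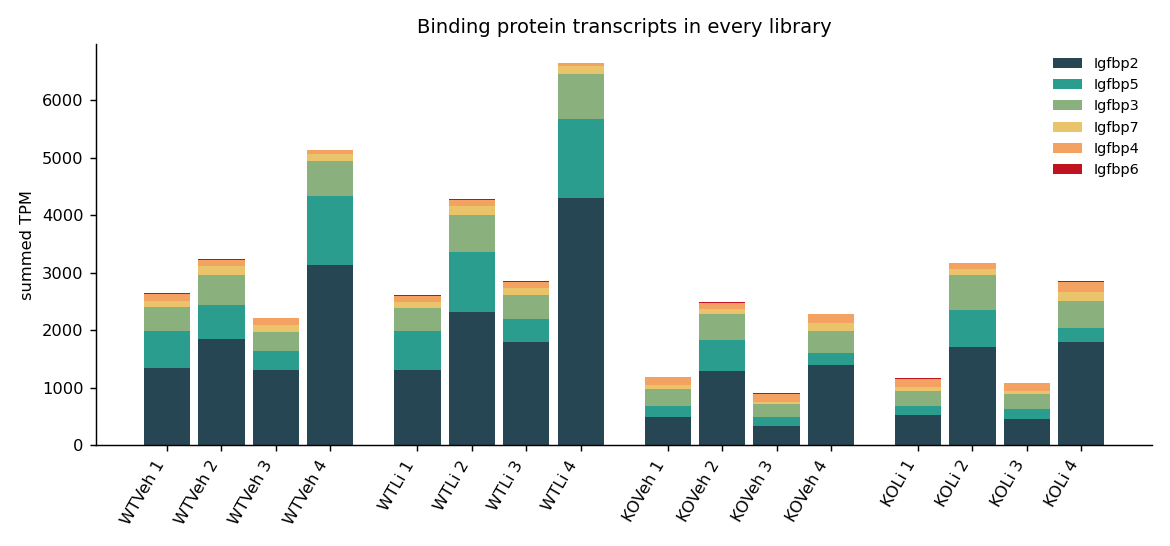
Summed TPM (vertical axis, from 0) of the 6 binding protein genes in each of the 16 libraries, stacked by gene. KO bars are shorter than the WT bars of the same number, for example 1190 against 2644 TPM in replicate 1 under Veh.

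Li changed none of the 10 genes by the thresholds used. In KOLi against KOVeh 0 of 10 were called, where 0% of all genes were, and at an unadjusted p under 0.05 there were 0 of 10, where 225 genes or 1.52% reached it. In WTLi against WTVeh 0 of 10 were called, again as for 0% of all genes, and 1 of 10, Igf1r, had an unadjusted p under 0.05, where 217 genes or 1.47% did. DESeq2 and limma-voom also called 0 genes in both. The log2 fold changes ran from -0.10 for Igf1 to 0.31 for Igfbp2 in KO and from -0.28 for Igfbp4 to 0.28 for Igfbp2 in WT.

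Igfbp2 was higher under Li in 4 of 4 KO pairs, by ratios of 1.05, 1.31, 1.30 and 1.29, and in 3 of 4 WT pairs, by 0.958, 1.18, 1.37 and 1.37. With SEs of 0.223 for both, its log2 fold changes of 0.31 and 0.28 had unadjusted p of 0.194 and 0.229 by edgeR's quasi-likelihood test on all 16 libraries. That fit does not use that the Veh and Li libraries of a genotype and number were correlated (by 0.507), and its SEs for Igfbp2 were larger than those of fits that do. With the culture as a random effect in limma-voom, Igfbp2 was at 0.30 (SE 0.136, unadjusted p = 0.0426, adjusted p = 0.966) in KO and at 0.27 (SE 0.135, unadjusted p = 0.0616, adjusted p = 0.751) in WT. With edgeR on the compared groups only, it was at 0.31 (SE 0.0522, unadjusted p = 7.63e-05, adjusted p = 0.172) and at 0.27 (SE 0.0809, unadjusted p = 0.00591, adjusted p = 0.522).

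An unadjusted p under 0.05 was reached with the random effect by 1 of 10 genes in KO, Igfbp2 (4.3% of all genes), and by 1 of 10 in WT, Igf1r (5.86%). With the compared groups only it was reached by 3 of 10 in KO, Igfbp2, Igfbp3 and Igfbp5, all higher under Li (8.74% of all genes). In WT it was reached by 6 of 10 (7.83% of all genes), of which Igf2, Igf1r, Igfbp2, Igfbp3 and Igfbp5 were higher and Igfbp4 lower, at -0.29 (SE 0.059, unadjusted p = 0.000443, adjusted p = 0.321). Neither fit called a gene in either comparison.

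In KO 2 of 10 genes, Igfbp2 and Igfbp6, were higher in all 4 pairs, where 7.68% of all genes were, and 0 of 10 were lower in all 4 (8.44%). For Igfbp6 the pair of replicate 2 was nearly a tie, at 1.845 CPM in KOLi and 1.842 CPM in KOVeh. Its ratios in replicates 1, 3 and 4 were 1.27, 1.15 and 1.09. In WT 2 of 10, Igf1r and Igfbp5, were higher in all 4 pairs (8.79% of all genes) and 1 of 10, Igfbp4, was lower in all 4 (7.94%). The WT ratios of Igf1r were 1.14, 1.35, 1.01 and 1.10, with a log2 fold change of 0.19 (SE 0.0781, adjusted p = 0.999).

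The Li effect in KO was also compared with that in WT, which is the question of whether Li acts differently on the KO cultures. In this comparison 0 of 10 genes were called, where 0% of all genes were, and 0 of 10 had an unadjusted p under 0.05, where 112 genes or 0.758% did. DESeq2 and limma-voom called 0 genes. The differences of the log2 fold changes ran from -0.28 for Igf2 (SE 0.402) to 0.38 for Igfbp4 (SE 0.339). For Igfbp2 and Igfbp5, the genes with the genotype difference, they were 0.02 (SE 0.315) and -0.06 (SE 0.439).

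Summed markers of other cell types were set beside the same pairs of libraries. For the marker calls below, the shares over all genes were 3.42% lower and 2.08% higher under Veh, and 3.6% and 2.76% under Li. In bulk cultures fewer cells of a type and less RNA per cell cannot be told apart. Of 6 ependymal markers all 6 passed the filter and 0 were called in either genotype comparison. They summed to 116 to 276 CPM in WTVeh, 52.3 to 278 in KOVeh, 143 to 318 in WTLi and 48.5 to 259 in KOLi. In that sum Foxj1 ranged from 29.6 to 254 CPM, and no other marker went above 34.3 CPM. The ratio of that sum between KOVeh and WTVeh was 0.23 in replicate 1, 1.11 in replicate 2, 0.476 in replicate 3 and 0.19 in replicate 4, beside 0.285, 0.878, 0.451 and 0.186 for Igfbp5. Igfbp5 had its highest correlation among the 9 marker lists with this one (r = 0.941 and rho = 0.924 over 16 libraries on log2 CPM). It was 0.864 within the 8 WT libraries, 0.948 within the 8 KO libraries and 0.934 without the 2 libraries farthest from the median. Igfbp5 was related most strongly, and inversely, to the neuron markers, at r = -0.973 (rho = -0.979, -0.964 in WT and -0.98 in KO). Igfbp3 and Igfbp2 also ran against the neuron markers, at r = -0.894 and -0.85. Correlations with marker sums, here and below, keep the replicate effect. The parts of ependymal cells and neurons in the result were not tested.

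Igfbp2 and Igfbp3 were most like the mural markers, those of pericytes and smooth muscle. Of these 6 markers 4 passed the filter and 0 were called, and Kcnj8 was at 0 in 1 library. The sum was 79.0 to 207 CPM in WTVeh, 24.7 to 121 in KOVeh, 78.0 to 287 in WTLi and 42.1 to 185 in KOLi. It came mainly from Acta2 (2.45 to 225 CPM), Pdgfrb (12.6 to 44.1) and Rgs5 (5.52 to 37.6). Tagln, Abcc9 and Kcnj8 reached at most 4.54, 0.637 and 0.288 CPM. Over the 16 libraries the sum correlated with Igfbp2 at r = 0.936 (rho = 0.894, 0.888 without the 2 farthest libraries) and with Igfbp3 at r = 0.955 (rho = 0.959, 0.929 without them). Within genotypes r was 0.970 in WT and 0.913 in KO for Igfbp2, and 0.898 and 0.972 for Igfbp3. For Igfbp2 the endothelial markers came next, at r = 0.894 (rho = 0.729, 0.564 in WT and 0.913 in KO). For Igfbp5 the mural sum came next after the ependymal one, at r = 0.882 (rho = 0.824, 0.851 in WT and 0.919 in KO). The pairs of Igfbp2 and the mural sum did not match as closely. In replicate 2 the mural sum was 1.38 times higher in KOVeh than in WTVeh while Igfbp2 was at 0.685. What these cells contributed was not tested.

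For Igf2 the highest of the 9 correlations was with the endothelial markers (r = 0.895, rho = 0.847, 0.795 without the 2 farthest libraries, 0.898 in WT and 0.83 in KO). Of these 6, 4 passed the filter and 0 were called. They summed to 42.6 to 68 CPM in WTVeh, 18 to 45.4 in KOVeh, 52.8 to 75.4 in WTLi and 22.2 to 54.4 in KOLi. That sum came mainly from Cdh5 (12.9 to 46.6 CPM) and Kdr (2.94 to 27.5 CPM), and no other marker went above 4.08 CPM. Igfbp4 went with the neuron markers (r = 0.871, rho = 0.868, 0.728 without the 2 farthest libraries, 0.902 in WT and 0.622 in KO). All 6 neuron markers passed the filter, 2 were called higher in KO under each treatment, and their sum was 3130 to 4590 CPM in WTVeh, 3800 to 5390 in KOVeh, 2860 to 4320 in WTLi and 3670 to 5270 in KOLi. Igf1 went with the microglia markers (r = 0.614, rho = 0.562), of which 0 of 6 were called and which spanned 3.27 to 124 CPM in WTVeh, 2.32 to 68.7 in KOVeh, 4.65 to 77.4 in WTLi and 4.16 to 72.1 in KOLi. That relation fell to 0.379 without the 2 libraries farthest from the median. The 6 markers of meningeal fibroblasts summed to 1240 to 1400 CPM in WTVeh and 980 to 1050 in KOVeh, without overlap, and to 1140 to 1410 in WTLi and 868 to 1250 in KOLi. All 6 passed the filter and 2, the collagen genes Col1a1 and Col1a2, were called lower in KO under each treatment. Estimates were below 0 for 5 of 6 under Veh (median -0.18) and for 4 of 6 under Li (median -0.03), and above 0 for the others. The sum came mainly from Col1a1 (94.4 to 415 CPM), Col1a2 (195 to 453) and Col3a1 (280 to 397), and no other marker went above 200 CPM. The ratios in replicates 1 to 4 under Veh were 0.815, 0.773, 0.755 and 0.713, and r to this sum was 0.701 for Igfbp2, 0.673 for Igfbp5, 0.663 for Igf2 and 0.579 for Igfbp3. Of the 6 markers of the oligodendrocyte lineage all passed the filter and 1, Cspg4, was called lower in KO under each treatment. Their sum was 393 to 751 CPM in WTVeh, 302 to 583 in KOVeh, 349 to 713 in WTLi and 315 to 761 in KOLi. Igfbp7 had its highest correlation with this sum (r = 0.865, rho = 0.915, 0.848 without the 2 farthest libraries, 0.919 in WT and 0.946 in KO). Of the 6 astrocyte markers 1 was called higher in KO under each treatment, while 4 had estimates below 0 under each. Their median log2 fold change was -0.31 under Veh and -0.23 under Li. They summed to 4920 to 7950 CPM in WTVeh, 4190 to 8160 in KOVeh, 5250 to 9350 in WTLi and 4590 to 8820 in KOLi. That sum was lower in KO in 3 of 4 pairs under Veh and in 4 of 4 under Li. Of the 6 markers of choroid plexus 5 passed the filter and 0 were called. The libraries of these correlations share genotype, experimental batch and, by pairs, probably a culture, and the parts of the cell types in the results were not tested.

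**Figure D4:**
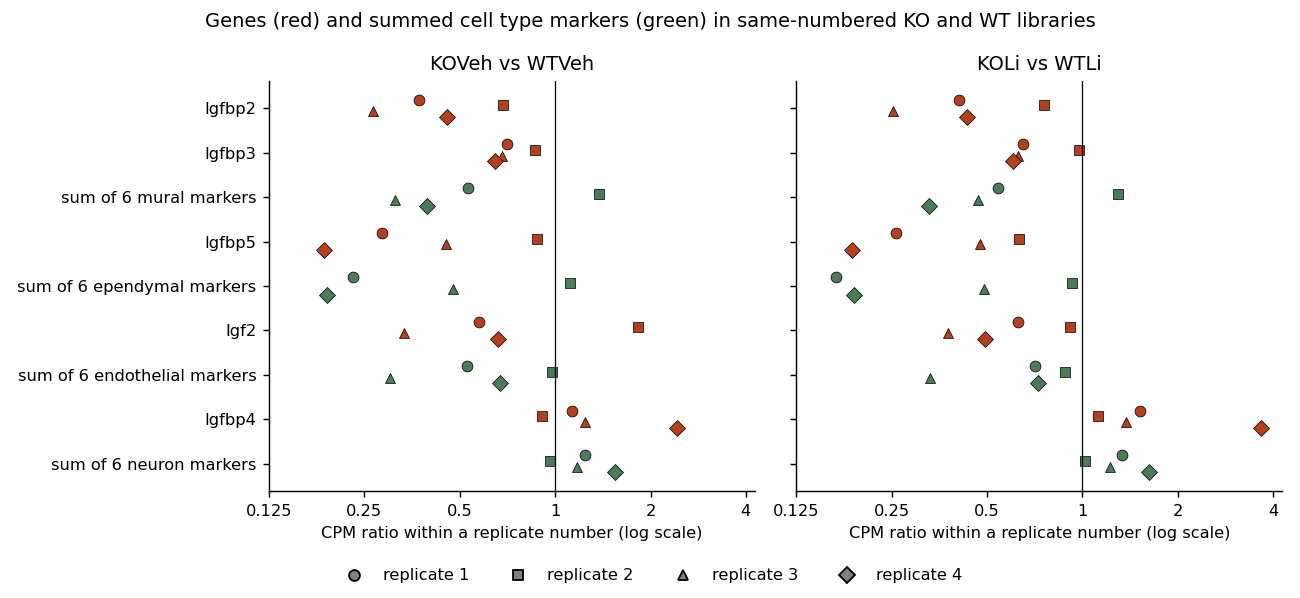
Ratio of KO to WT (horizontal log axis) within each replicate number, under Veh (left) and Li (right), for 5 genes (red) and for summed CPM of the 6 markers of 4 cell types (green). Igfbp5 and the ependymal sum have their lowest ratios in replicate 4 under Veh, 0.186 and 0.19, and replicate 2 lies farthest right for 4 of the 5 genes.

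Among themselves, Igfbp2, Igfbp3 and Igfbp5 varied together once the replicate effect was removed from log2 CPM. Over 16 libraries r was 0.936 for Igfbp2 and Igfbp3 (rho = 0.924), 0.907 for Igfbp3 and Igfbp5 (rho = 0.879) and 0.869 for Igfbp2 and Igfbp5 (rho = 0.821). The last of these rested largely on the genotypes, since within WT it was 0.417 and within KO 0.409. Igfbp4 ran against Igfbp5, at r = -0.89 (rho = -0.956, -0.848 within WT and -0.803 within KO). Igfbp6 and Igfbp7 correlated at 0.928 with the replicate effect removed and at 0.0333 with it kept. Of all tested genes, those with the highest r to Igfbp5 were Synpo2 (0.993), Ctnna1 (0.992) and Wdr78 (0.992), and with the replicate effect kept r was 0.982, 0.984 and 0.916. To Igfbp2 they were Cast (0.988), Glipr2 (0.986) and Epha2 (0.985), with 0.873, 0.848 and 0.987 when it was kept. The nearest genes were Ikbip (0.977), Cdkn2a (0.974) and Ier5l (0.973) for Igfbp3 and Fam184b (0.977), Ywhag (0.973) and Ypel1 (0.972) for Igfbp4. They were Pde5a (0.957), Unk (0.952) and Ston1 (0.947) for Igf2, and Cyth4 (0.905), Mrc1 (0.904) and Nacc1 (0.88) for Igf1, where Nacc1 fell to -0.0382 with the replicate effect kept. The remaining 4 members had top values of 0.963 (Igfbpl1 for Igfbp7), 0.948 (Adamts7 for Igfbp6, -0.191 with the effect kept), 0.947 (Zc3h11a for Igf1r) and 0.933 (Snrnp200 for Igf2r). Next in order came Otx2 (0.962) and Ahnak2 (0.957) for Igfbp7, Kmt5c (0.942) and Icam1 (0.939) for Igfbp6, Ccdc77 (0.912) and Uvssa (0.905) for Igf1r, and Pole (0.913) and Dnmt1 (0.912) for Igf2r. With the replicate effect kept, r fell to 0.141 for Kmt5c, 0.239 for Icam1, -0.0177 for Ccdc77, 0.638 for Zc3h11a and 0.645 for Unk. Apart from these, Nacc1 and Adamts7, the named genes stayed at 0.76 (Otx2) or higher. With so few libraries and 14783 genes, these are descriptions of the libraries.

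Of the rest of the pathway 41 further genes are reported here, of which 36 passed the filter. Ins1, Ins2, Insrr, Igfals and Igfbp1 did not, and Igfbp1, 3539 bases from Igfbp3, reached 0.315 CPM at most. In KOVeh against WTVeh 1 of the 36 was called lower and 1 higher (3.42% and 2.08% of all genes), and in KOLi against WTLi 0 lower and 2 higher (3.6% and 2.76%). Their median log2 fold changes were 0.05 and 0.00, and Li called 0 of them in either genotype.

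The smallest adjusted p of these belonged to Ide, the insulin-degrading enzyme, a protease that cleaves insulin and can also degrade IGF2. It was at 89.9, 90.6, 96.2 and 94.3 CPM in WTVeh and at 136, 151, 167 and 177 CPM in KOVeh. Every KO library was above every WT library under both treatments, replicate 2 included (2.45% of all genes under Veh and 3.33% under Li). The log2 fold changes were 0.76 (SE 0.0762, adjusted p = 0.000911) under Veh and 0.78 (SE 0.0765, adjusted p = 0.000565) under Li.

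Shc1, an adaptor that links IGF1R to the RAS pathway, fell by 0.30 on the log2 scale under Veh (SE 0.063, adjusted p = 0.00777), from 50.5 to 55.7 CPM in WTVeh to 40.1 to 48.9 CPM in KOVeh. Under Li its value was -0.26 (SE 0.0632, adjusted p = 0.0137). Stc1, a secreted glycoprotein that inhibits PAPP-A, was called higher under Li, at 0.43 (SE 0.0928, adjusted p = 0.00847), and had 0.33 under Veh (SE 0.0914, adjusted p = 0.0245). Pdpk1, a kinase upstream of AKT, had log2 fold changes of 0.36 (adjusted p = 0.0142) and 0.21 (adjusted p = 0.0908) and was not called. By list, 1 of 10 tested receptor and adaptor genes was called lower under Veh (3.42% of all genes), and 0 were called under Li. Of 8 genes that set IGF availability 1 was called higher under Veh (2.08% of all genes) and 2 under Li (2.76%). Of the 3 Igf2bp genes, which encode RNA binding proteins, 0 were called.

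**Figure D5:**
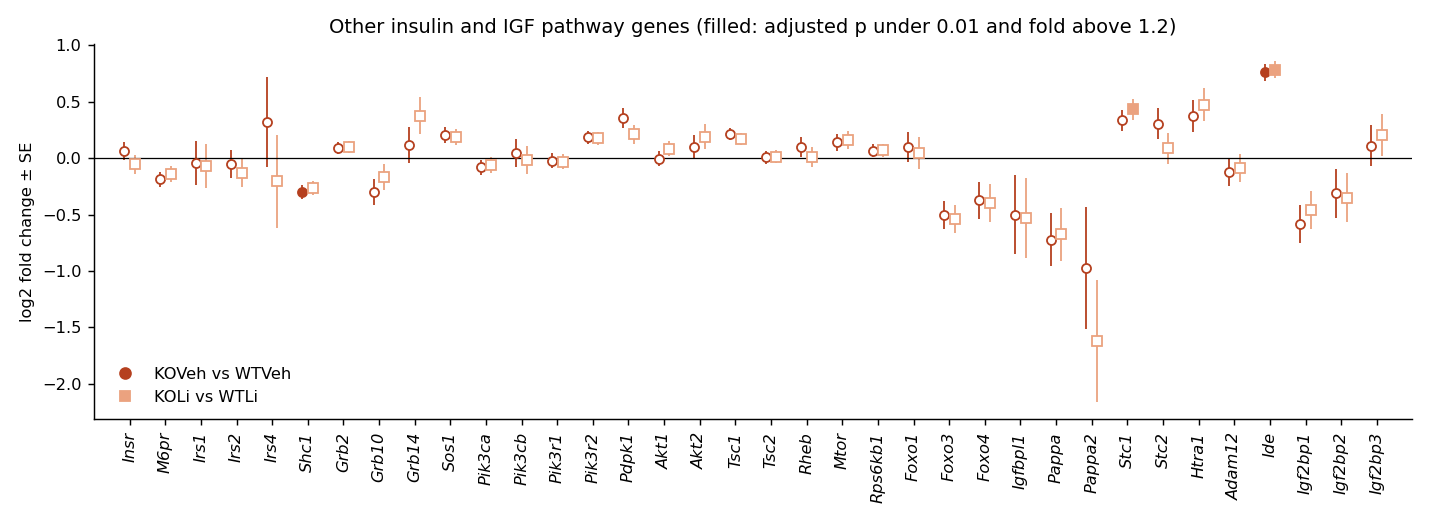
Log2 fold change with SE (vertical axis) of 36 tested pathway genes beside the 10, in KOVeh against WTVeh (circles) and KOLi against WTLi (squares). Filled symbols passed the thresholds: Ide at 0.76 and 0.78, Shc1 at -0.30 under Veh and Stc1 at 0.43 under Li.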

How the data were processed

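RNA of 16 libraries was sequenced. The authors deposited raw counts, that is, reads per gene as whole numbers, for 54532 genes and 16 libraries. The submitters' processing notes name HISAT2 2.0.5, featureCounts 1.5.0-p3 and GRCm38.p6. Gene lengths and coordinates are those of the deposited tables, and 14 gene names that differed between the tables were matched by identifier.

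Of 33134 genes of the study's biotypes, 14783 passed filterByExpr (minimum count 15, minimum proportion 0.25). They were scaled by TMM and fitted in R 4.3.3 with edgeR 4.0.16 by its quasi-likelihood test, with group and replicate number as terms, where the study used limma with the same terms. Count filter, biotypes and call thresholds follow the study's methods, but its restriction to genes with an Entrez ID was not applied. All adjusted p-values in the text are from that fit unless another tool is named. The fit was also run on simulated counts drawn independently for each library, which cannot check the correlation between Veh and Li libraries given below. Likeness between genes was Pearson's r of log2 CPM (prior count 2) after limma 3.58.1 had removed the replicate effect. Correlations with summed markers used log2 CPM without a prior count and with the replicate effect kept.

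Same-numbered libraries were paired on the assumption that the number is the paper's experimental batch. Their deviations from the group means correlated by 0.224 to 0.557 between WTVeh and KOVeh and by 0.161 to 0.5 between WTLi and KOLi. Across treatments the values ran from -0.0386 to 0.499 between WTVeh and KOLi and from 0.334 to 0.552 between WTLi and KOVeh. Libraries of a genotype and number stayed correlated by 0.507, which the main fit does not model.

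The text names Shank3, the 10 genes, H19, pathway genes (those called, filled up to 6 by the smallest p, of which some, with their part in the pathway counts, are not reported here) and 3 genes most like each member. Igf2os, Gm49394 and Airn were named for their position. The members and the lists (insulin ligands, receptors and adaptors, PI3K/AKT/mTOR, IGF availability, Igf2 mRNA binding, and markers of neurons, astrocytes, microglia, oligodendrocyte lineage, endothelium, mural cells, meningeal fibroblasts, choroid plexus and ependyma) were chosen with earlier results of these data known. Alternatives were DESeq2 1.42.0, limma-voom with and without the culture as a random effect, other scalings, filters, biotypes and thresholds, other terms, and libraries left out.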

Additional observations from a re-analysis of the deposited data

Results flagged for a closer look

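In 40 groups of 4 libraries (10 genes in 4 groups), the lowest or highest library lay farther from the others than Dixon's 95% critical value for 4 samples allows in 2 groups, and chance gives about 1 in 20. Both were replicate 4 of WT, the replicate sequenced in the other batch. Igfbp4 was at 84.7 CPM in replicate 4 of WTVeh, beside 140 to 147 CPM in the other 3 libraries. Igfbp6 was at 1.43 CPM in replicate 4 of WTLi, beside 4.10 to 4.43 CPM in the others.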

How the results depend on the processing

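In KOVeh against WTVeh, with 1 of the 10 genes and 813 of all genes called, the counts were 3 and 1891 with DESeq2, 2 of 10 and 513 with limma-voom and the culture as a random effect, 2 of 10 without a filter on low counts, and 4 and 2873 at an adjusted p under 0.05 without a fold minimum. They were 0 and 0 without the replicate block, with the sequencing batch in place of the block and with the compared groups only, and 0 and 15 with sequencing batch 1 only. In KOLi against WTLi, with 2 and 940 called, they were 4 and 2047 with DESeq2, 6 and 3222 at an adjusted p under 0.05, 0 and 0 without the replicate block, with the sequencing batch in its place and with the compared groups only, and 0 and 7 with sequencing batch 1 only. With libraries left out, counts ran from 0 to 4 of the 10 genes and 47 to 1647 of all genes under Veh, and from 0 to 4 and 84 to 1758 under Li. The highest were without replicate 2, where Igf2, Igfbp2, Igfbp3 and Igfbp5 were called in both. No gene was called in the Li comparisons under any alternative. Why the counts moved was not tested.

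Igfbp2 kept its direction in all 30 alternatives of each genotype comparison, with log2 fold changes from -1.48 to -1.07 under Veh and -1.51 to -1 under Li, and so did Igfbp5, from -1.80 to -1.07 and -1.81 to -1.16. Sign changes, in 15 of 300 values under Veh and 4 of 300 under Li, befell Igf1 and Igf1r only and were uncalled values within 1 SE of 0 in one of the fits, which were not counted as reversals. By CPM instead of TPM, Igfbp5 (1161 CPM) came before Igfbp2 (974 CPM) in WTVeh.

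Of the 10 genes, Igfbp6 had the fewest counts, so that its ratios are the least certain for counting alone. Replicate number, sequencing batch and pooled pups are tied together by the design, and 4 cultures a group set the precision. Protein was not analysed here.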
